A study of Mus musculus with 4 samples.

Results

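Metallothioneins and the transporters that move zinc across membranes were examined in retinal cells sorted from control and *Rax* iCKO mice. The set held 9 genes, chosen by name among 24322 gene symbols with a value in every library: the metallothioneins *Mt1*, *Mt2* and *Mt3*, the transcription factor *Mtf1*, the exporters *Slc30a1* and *Slc30a10*, and the importers *Slc39a1*, *Slc39a10* and *Slc39a14*. *Rax* encodes a homeodomain transcription factor of retinal progenitors that is retained in Müller glia, the radial glia of the retina. The 2 control mice were Raxflox/WT and the 2 *Rax* iCKO mice were Raxflox/flox. All 4 carried Rlbp1-CreERT2 and the R26-CAG-LoxP-mTFP1 reporter, were labelled 129S6 and received tamoxifen (given at P4, with harvest at P14). Controls therefore also carried Cre, the reporter and a floxed *Rax* allele. The *Rlbp1* promoter that drove CreERT2 is active in Müller glia and, in the study's description, also in the retinal pigment epithelium, and each library came from the mTFP-positive cells of 1 mouse.

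Metallothioneins are small cysteine-rich proteins that bind zinc and copper in the cytoplasm, and they buffer free zinc. When free zinc rises, MTF1 enters the nucleus and binds metal response elements in the promoters of *Mt1*, *Mt2* and *Slc30a1*. Members of the SLC30 family carry zinc out of the cytoplasm and members of the SLC39 family carry it in. In the retina, zinc is abundant in photoreceptors and in the pigment epithelium.

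The coding sequences of the 3 metallothionein genes are shown because their cysteine codons are the metal-binding feature that the family shares, and because their likeness bears on whether reads can be assigned to 1 gene. They were read from the GRCm38 genome with GENCODE transcripts, and capitals mark the codons for cysteine (TGC or TGT).
Mt1: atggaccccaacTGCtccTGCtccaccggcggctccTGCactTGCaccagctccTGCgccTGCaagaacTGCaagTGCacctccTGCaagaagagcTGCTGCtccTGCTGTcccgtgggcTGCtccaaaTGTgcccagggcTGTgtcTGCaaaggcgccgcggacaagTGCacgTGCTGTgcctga
Mt2: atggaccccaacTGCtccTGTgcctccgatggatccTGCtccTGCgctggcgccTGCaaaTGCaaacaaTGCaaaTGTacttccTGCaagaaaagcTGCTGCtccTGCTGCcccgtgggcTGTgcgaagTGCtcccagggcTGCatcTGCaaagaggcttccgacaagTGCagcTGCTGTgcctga
Mt3: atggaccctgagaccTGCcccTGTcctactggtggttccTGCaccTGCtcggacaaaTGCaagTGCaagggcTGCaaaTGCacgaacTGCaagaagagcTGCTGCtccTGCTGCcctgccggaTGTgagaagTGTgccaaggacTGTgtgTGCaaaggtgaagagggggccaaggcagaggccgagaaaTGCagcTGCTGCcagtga
Each sequence held 20 cysteine codons, among 61 codons in *Mt1* and *Mt2* and 68 in *Mt3*. *Mt1* and *Mt2* were identical at 148 of 186 coding bases (79.57%). None of the 449 windows of 1 read length in the *Mt1* transcript matched the *Mt2* transcript with 2 or fewer mismatches, and the closest pair differed at 17 bases. *Mt1* lies at chr8:94178883-94180327, *Mt2* at chr8:94172618-94173567 and *Mt3* at chr8:94152607-94154148, all on the plus strand of GRCm38.

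The promoters of 3 genes are shown because metal response elements mark the route by which zinc is known to act on them. They are RefSeq windows on GRCm38.p6, each from 250 bases before to 50 bases after an annotated start site. For *Mt1* and *Slc30a1* that site lies inside the gene as located here, and no window was placed at the start of the locus. Capitals mark the core of the metal response element on either strand, searched as TGCACNC or TGCGCNC.
Mt1, chr8:94178839-94179138, plus strand: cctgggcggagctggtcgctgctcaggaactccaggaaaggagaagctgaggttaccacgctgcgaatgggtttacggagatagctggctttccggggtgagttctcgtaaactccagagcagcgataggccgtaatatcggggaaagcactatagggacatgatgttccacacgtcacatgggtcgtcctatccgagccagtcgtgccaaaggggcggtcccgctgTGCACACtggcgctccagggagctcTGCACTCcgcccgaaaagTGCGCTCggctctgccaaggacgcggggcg
Mt2, chr8:94172368-94172667, plus strand: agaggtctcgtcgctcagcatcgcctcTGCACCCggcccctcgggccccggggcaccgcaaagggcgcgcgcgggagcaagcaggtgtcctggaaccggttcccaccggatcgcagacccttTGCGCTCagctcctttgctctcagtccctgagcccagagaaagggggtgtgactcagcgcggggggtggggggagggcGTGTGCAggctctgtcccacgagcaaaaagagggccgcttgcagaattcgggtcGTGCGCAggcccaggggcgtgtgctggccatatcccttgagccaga
Slc30a1, chr1:191906531-191906830, plus strand: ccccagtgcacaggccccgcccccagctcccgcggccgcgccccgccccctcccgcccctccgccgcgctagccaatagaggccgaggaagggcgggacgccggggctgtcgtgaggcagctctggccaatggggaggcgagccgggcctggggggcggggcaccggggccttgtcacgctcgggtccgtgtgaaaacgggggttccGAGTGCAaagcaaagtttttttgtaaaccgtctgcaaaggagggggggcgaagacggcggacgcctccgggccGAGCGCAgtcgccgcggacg
The core occurred 3 times in the *Mt1* window, 4 times in the *Mt2* window and 2 times in the *Slc30a1* window. *Mt3* had 1 match and *Slc30a10* had 3, of which 2 overlapped, whereas *Mtf1*, *Slc39a1* and *Slc39a10* had 0. *Slc39a14* was not searched here. Of 32851 promoter windows of this length, 25.7% held at least 1 match, 7.11% at least 2, 1.97% at least 3 and 0.517% at least 4. TAATT, the site that the study predicted for Rax, was found 1 time each in the windows of *Mt3* and *Slc39a1* and in both windows of *Slc39a10*, and it was not found in those of *Mt1*, *Mt2*, *Mtf1*, *Slc30a1* and *Slc30a10*. It occurred in 27.0% of all windows. Such matches describe letters in a window and do not show binding.

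Expression was given as FPKM, fragment counts scaled to transcript length and to the mapped reads of the library, and differences are on the log2(FPKM + 1) scale. Depth, worked out from the low FPKM values, was about 12700000 mapped reads for control mouse 7984 and 9280000 to 9440000 for the other 3 mice. *Rax* was 189.1 and 181.4 FPKM in control mice 7984 and 3911, against 111.4 and 98.38 FPKM in *Rax* iCKO mice 7983 and 3914. Its log2 fold change was -0.82 (SE 0.21, limma adjusted p = 1 and an unadjusted p under 0.05), and FPKM counted to *Rax* were lower in both iCKO libraries. In a fit that blocked mouse 7983 with 7984 and mouse 3911 with 3914, its limma adjusted p was 0.0223. Exons of *Rax* overlap those of *Raxos1* on the opposite strand by 1604 bases, and which reads were counted to which gene was not given in the sources used here. All 14 Müller glia markers were detected above the filter. Libraries also differed in markers of other cell types and in sex-linked genes, the values of which are given after those of the zinc genes.

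None of the 9 genes passed an adjusted p of 0.05 between genotypes, where 0.0243% of the 12363 genes tested did (limma, Benjamini-Hochberg). None had an unadjusted p under 0.05 either, against 2.86% of all genes. All 9 were above the filter of a mean of 1 FPKM. Their median log2 fold change was -0.14, with 2 genes above 0 and 7 below, beside a median of -0.0044 over all genes tested. The median of the 9 genes rested on single mice and on the scaling: it was -0.0066 without control mouse 7984, -0.0521 without *Rax* iCKO mouse 3914 and -0.0749 after quantile normalization. It was -0.30 over the 6 genes with a mean of at least 5 FPKM. Control and *Rax* iCKO values overlapped for 8 of the 9 genes. The exception was *Slc39a14*, which was higher in both *Rax* iCKO mice. Groups failed to overlap in either direction for 29.5% of all genes tested, and with higher values in *Rax* iCKO for 15.4%, so a share of 1 in 9 is not above the background. The adjusted p was 1 for every member with limma. In bulk RNA from sorted cells, fewer cells of a type and less RNA per cell cannot be told apart.

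**Figure D1:**
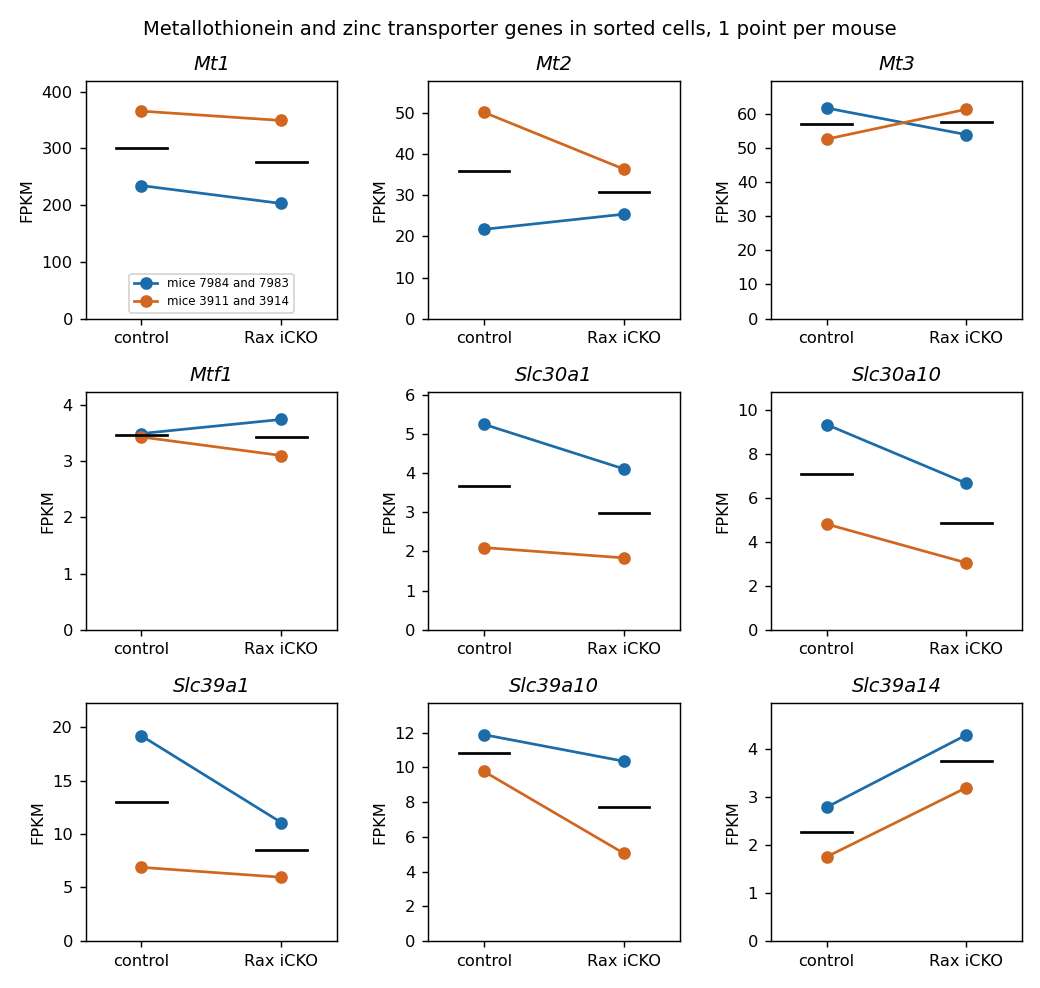
FPKM of the 9 genes in each mouse, with a panel for each gene on a linear axis, control at the left and *Rax* iCKO at the right. Colour marks the run of mouse numbers, lines join the mice of a run, and black bars mark the group means. Only *Slc39a14* has both *Rax* iCKO values above both control values, while *Mt1* and *Mt2* are high in mice 3911 and 3914 and the exporters are high in mice 7983 and 7984.

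*Mt1* was the most abundant of the 9 genes in FPKM, at the 97.59th percentile of all genes tested. It was 234.3 and 365.5 FPKM in the control mice and 202.8 and 349.0 FPKM in the *Rax* iCKO mice. The high and the low mouse of one genotype thus had a near counterpart in the other, and the groups overlapped. The means were 299.9 ± 92.75 FPKM in control and 275.9 ± 103.4 FPKM in *Rax* iCKO (SD, n = 2 each). The log2 fold change was -0.14 (SE 0.37, 95% interval -1.04 to 0.77), and it was 0.01 after quantile normalization and 0.07 after library medians were equalized within transcript length classes. An exact two-sided permutation test gave p = 0.667, where 0.333 is the smallest value that 2 mice against 2 can give.

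*Mt2*, the neighbouring gene and the other zinc-inducible metallothionein, was 21.71 and 50.15 FPKM in control and 25.4 and 36.34 FPKM in *Rax* iCKO. Both iCKO values lay between the control values. Its means were 35.93 ± 20.11 and 30.87 ± 7.738 FPKM (SD, n = 2 each), and its log2 fold change was -0.12 (SE 0.41, 95% interval -1.13 to 0.89). With library medians equalized within length classes it was 0.08. Reads counted to *Mt2* could include some from *Gm45774* on the opposite strand, which overlaps its exons by 432 bases, because the use of strand in the counting was not given in the sources used here.

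*Mt3*, a metallothionein known mainly from the brain and less responsive to zinc than *Mt1*, varied less between mice as deposited. It was 61.61 and 52.51 FPKM in control and 53.83 and 61.26 FPKM in *Rax* iCKO, and the values of one genotype covered nearly the same range as those of the other. Its log2 fold change was 0.01 (SE 0.21, 95% interval -0.50 to 0.53), with equal library medians it was -0.01, and with medians equalized within length classes it was 0.22. The interval leaves room for differences of about that size in either direction.

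The 3 metallothioneins summed to 317.6 and 468.1 FPKM in the control mice and to 282.1 and 446.6 FPKM in the *Rax* iCKO mice. They made up between 0.05724% and 0.0814% of the FPKM in a library. *Mt1* supplied between 71.91% and 78.15% of the sum, so the sum followed *Mt1*. Per length, *Mt1* exceeded *Mt2* by 7.288 to 10.79 times, and the lowest and the highest of these ratios were both in control mice.

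*Mtf1*, the zinc sensor that activates metallothionein genes, was low and even. Its values were 3.495 and 3.433 FPKM in control and 3.746 and 3.103 FPKM in *Rax* iCKO. The control values lay between those of the iCKO mice, and the log2 fold change was -0.02 (SE 0.26, 95% interval -0.66 to 0.63). *Mtf1* (chr4:124802549-124849800) shares 721 exon bases with *1110065P20Rik* on the opposite strand, a gene that was 55.92 and 59.38 FPKM in mice 7983 and 7984 and 107.0 FPKM in both others. How reads in the overlap were assigned was not given in the sources used here.

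*Slc30a1*, the exporter of the plasma membrane and itself a target of MTF1, was 5.243 and 2.098 FPKM in control and 4.104 and 1.834 FPKM in *Rax* iCKO. Within each genotype the mouse numbered 7983 or 7984 was the higher one. The log2 fold change was -0.21 (SE 0.46, 95% interval -1.33 to 0.91). *Slc30a10*, a family member best known as an exporter of manganese, was 9.345 and 4.814 FPKM in control and 6.669 and 3.046 FPKM in *Rax* iCKO. It showed the same order of mice as *Slc30a1*. Its log2 fold change was -0.48 (SE 0.43, 95% interval -1.53 to 0.57). *Slc30a1* lies at chr1:191906697-191913248 and *Slc30a10* at chr1:185454848-185468762 on GRCm38, both on the plus strand. Opposite-strand genes overlap their exons, *1700034H15Rik* by 468 bases for *Slc30a1* (0.038 to 0.285 FPKM) and *Gm2061* by 533 bases for *Slc30a10* (1.16 to 1.59 FPKM).

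The importer *Slc39a1* had the widest spread among the control values of the transporters. It was 19.19 and 6.883 FPKM in control and 11.07 and 5.957 FPKM in *Rax* iCKO, so mouse 7984 stood above the other 3. The log2 fold change was -0.46 (SE 0.50, 95% interval -1.69 to 0.77). Of the 2264 windows of 1 read length in its transcript, 333 (14.708%) were identical to the pseudogene *Slc39a1-ps*, so its values carry an uncertain share of reads. The gene lies at chr3:90248190-90253613 on the plus strand.

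*Slc39a10*, another zinc importer of the plasma membrane, was 11.89 and 9.769 FPKM in control and 10.36 and 5.047 FPKM in *Rax* iCKO. Mouse 3914 was the lowest, while iCKO mouse 7983 lay between the controls. The means were 10.83 ± 1.497 and 7.704 ± 3.758 FPKM (SD, n = 2 each), and the log2 fold change was -0.51 (SE 0.35, 95% interval -1.37 to 0.35). After quantile normalization, with equal library medians, or with equal medians within length classes, both iCKO values lay below both control values. The gene lies at chr1:46807544-46925776 on the minus strand.

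*Slc39a14* encodes an importer of zinc, manganese and iron that is known from liver as an acute-phase gene. It was 2.789 and 1.754 FPKM in control and 4.3 and 3.2 FPKM in *Rax* iCKO. Both iCKO mice were above both control mice. The means were 2.272 ± 0.732 and 3.75 ± 0.778 FPKM (SD, n = 2 each), a ratio of 1.651, and the log2 fold change was 0.55 (SE 0.31, 95% interval -0.21 to 1.30). The exact two-sided permutation test gave p = 0.333, the smallest it can give. *Slc39a14* (chr14:70303467-70351452, minus strand) also rested on the fewest reads among the 9 genes. About 31 to 80 reads lay behind the lowest value, so counting error there reached 18.11%, whereas *Mt1* had at least 668 reads in each library.

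For most of the genes, differences between mice of one genotype followed the mouse numbers. The numbers form a run of 7983 and 7984 and a run of 3911 and 3914, each with 1 control and 1 *Rax* iCKO mouse, and the labels do not say what the numbers stand for. *Mt1* averaged 218.6 FPKM in mice 7983 and 7984 and 357.3 FPKM in mice 3911 and 3914, a ratio of 1.635, and *Mt2* was 1.836 times as high in the latter. The transporters went the other way. *Slc30a1* was 2.377 times as high in mice 7983 and 7984, *Slc39a1* 2.356 times, *Slc30a10* 2.037 times and *Slc39a10* 1.502 times. Values of the runs did not overlap for 7 of the 9 genes, *Mtf1* included and *Mt3* and *Slc39a14* not, where 55.9% of all genes tested were separated in this way. The median absolute difference between runs was 0.71 on the log2 scale for the 9 genes and 0.29 for all genes tested. Between genotypes the same measure was 0.21 and 0.19. The difference between runs exceeded that between genotypes for 8 of the 9 genes and for 63.908% of all genes.

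**Figure D2:**
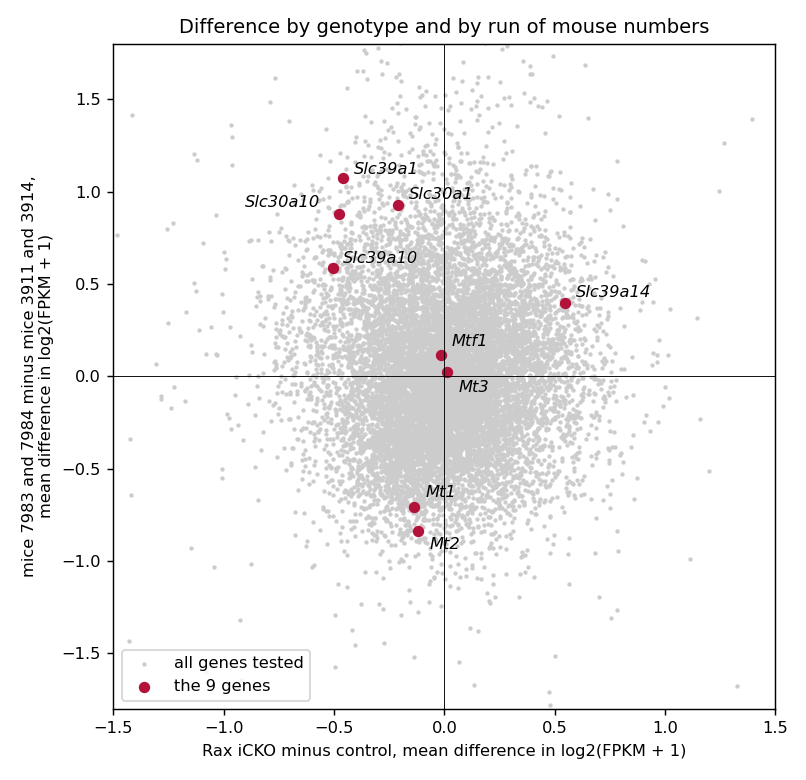
Difference between genotypes (horizontal, *Rax* iCKO minus control) against the difference between runs of mouse numbers (vertical, 7983 and 7984 minus 3911 and 3914), both in log2(FPKM + 1), for the 9 genes in colour and all genes tested in grey, of which 122 lie outside the axes. The 4 transporters at the top left are lower in *Rax* iCKO by up to 0.51 and higher in mice 7983 and 7984, and *Mt1* and *Mt2* lie at the bottom.

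Within the runs, *Rax* iCKO minus control had the same sign for 6 of the 9 genes, against 62.3% of all genes tested. *Mt1*, *Slc30a1*, *Slc30a10*, *Slc39a1* and *Slc39a10* were lower in the iCKO mouse of each run, and *Slc39a14* was higher in each. For *Slc30a10* the log2 differences were -0.43 for mouse 7983 against 7984 and -0.52 for mouse 3914 against 3911. Those of *Slc39a14* were 0.48 and 0.61. These were the most even pairs among the 6 genes in proportion to their size. *Slc39a1* differed by -0.74 in the first run and -0.18 in the second, and *Slc39a10* by -0.18 and -0.83, so that the size of either difference rested mainly on 1 run. *Mt2* differed by 0.22 and -0.45 and had no common sign. With the run as a term in the limma fit, 4 of the 9 genes (*Slc30a10*, *Slc39a1*, *Slc39a10* and *Slc39a14*) had an unadjusted p under 0.05, against 15.7% of all genes, and none passed after adjustment, against 0.574%.

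Transcript length moved with the runs as well. Lengths were matched for 11337 of the genes tested (91.7%). Among 632 genes with transcripts under 1000 bases, 84.2% were higher in mice 3911 and 3914, with a median difference (mice 7983 and 7984 minus the others) of -0.43 on the log2 scale. Among 3812 genes of 4000 bases or more, 29.1% were higher there, with a median of 0.21. The metallothionein transcripts are 511 to 549 bases long, and the longest ones of *Slc30a1*, *Slc30a10*, *Slc39a10*, *Slc39a14* and *Mtf1* are 4926 to 7631 bases long. The longest transcript set the class of a gene, and for *Slc39a14* the transcripts ran from 2075 to 4926 bases. *Mt3* (536 bases) differed between runs by 0.02, unlike *Mt1* and *Mt2* and unlike most short genes. Length also moved with genotype, since the median *Rax* iCKO minus control was -0.23 for the shortest class and 0.11 for the longest. With library medians equalized within 4 length classes, a step chosen after these values were seen, the runs did not overlap for 6 of the 9 genes and for 53.3% of all genes. Of the 7 genes separated before this step, 5 remained so, *Mtf1* and *Slc39a10* came to overlap, and *Mt3* became separated, with a run difference of 0.46. The median absolute difference between runs then was 0.39 for the 9 genes and 0.25 for all genes. *Slc39a1*, of intermediate length at 2364 bases, kept a run difference of 1.04, whereas those of *Mt1* and *Mt2* shrank to -0.27 and -0.39. The part of transcript length in the results was not tested further.

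**Figure D3:**
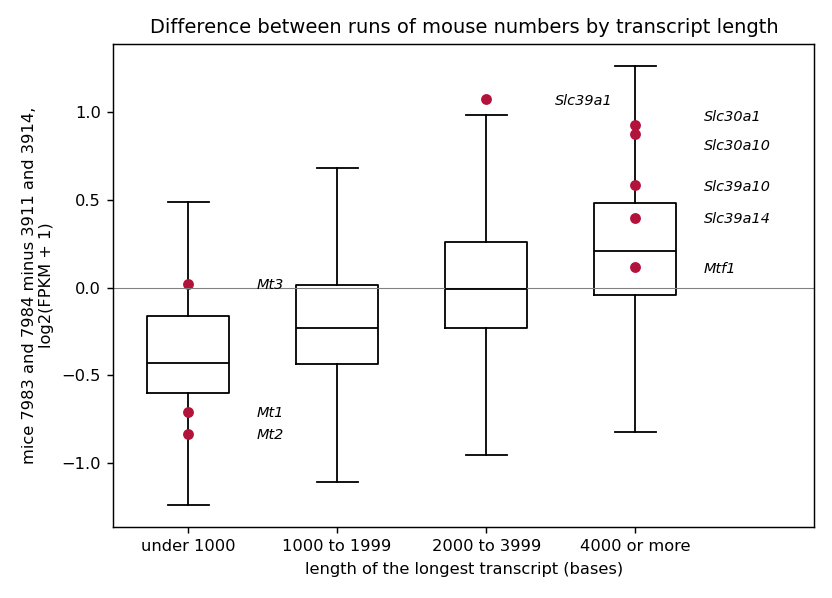
Difference between runs of mouse numbers in log2(FPKM + 1), for genes grouped by the length of the longest transcript in bases, with boxes from the lower to the upper quartile, a line at the median, and whiskers to the outermost gene within 1.5 interquartile ranges. The medians go from -0.43 in the shortest class to 0.21 in the longest, and the red points place *Mt1* and *Mt2* below the box of their class, *Mt3* above it and *Slc39a1* above the upper whisker of its class.

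Likeness of pattern was measured as the distance between log2 deviations from the gene mean over the 4 libraries, among 7048 genes with a mean of at least 10 FPKM. The genes nearest to *Mt1* were *Fez1* (distance 0.037), *Zcchc17* (0.0405) and *2610306M01Rik* (0.0565). *Fez1* was 58.09 and 91.71 FPKM in control and 49.73 and 89.2 FPKM in *Rax* iCKO. Nearest to *Mt2* were *Fabp5* (0.0184), *Tmsb4x* (0.0767) and *Ndufa5* (0.0786). *Fabp5*, which encodes a fatty acid binding protein, was 32.38 and 74.09 FPKM in control and 38.04 and 53.25 FPKM in *Rax* iCKO. *Mt2* ranked 1293 in likeness to *Mt1*, at a distance of 0.4256, so the paired metallothionein genes were not each other's nearest in pattern. About 75 to 238 reads lay behind the values of *Mt2*, with a counting error of up to 11.58%. The part of counting error in this distance was not tested.

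Of 21 other genes of zinc handling (the rest of the Slc30 and Slc39 families, *Mt4* and *Tmem163*), 11 passed the filter and none passed an adjusted or an unadjusted p of 0.05 with limma. *Mt4* and *Slc30a8* were listed at 0 in all 4 libraries. Their median log2 fold change was 0.04, with 7 genes above 0 and 4 below, and all lay between -0.25 and 0.31. Among those tested, the groups did not overlap for 3 genes that were higher in *Rax* iCKO and 2 that were lower, where 15.4% and 14.1% of all genes tested did so. The largest differences were those of *Slc39a13*, a transporter of intracellular vesicles (12.83 to 16.87 FPKM in control, 18.18 to 18.78 in *Rax* iCKO, log2 fold change 0.31), of *Slc39a11* (-0.25) and of *Slc30a6*, a Golgi transporter (-0.21). In FPKM the most abundant were *Slc39a7*, which releases zinc from the endoplasmic reticulum (102.5 to 125.5 FPKM), *Slc30a9* of the mitochondria (50.46 to 73.71), the importer *Slc39a6* (30.46 to 38.23), *Slc30a5* of the early secretory pathway (28.88 to 31.25) and the importer *Slc39a3* (22.61 to 35.25). *Slc39a7* thus exceeded every one of the 5 transporters among the 9 genes per length, and transporters of internal membranes stood at the top of the order together with *Mt1* and *Mt3*.

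**Figure D4:**
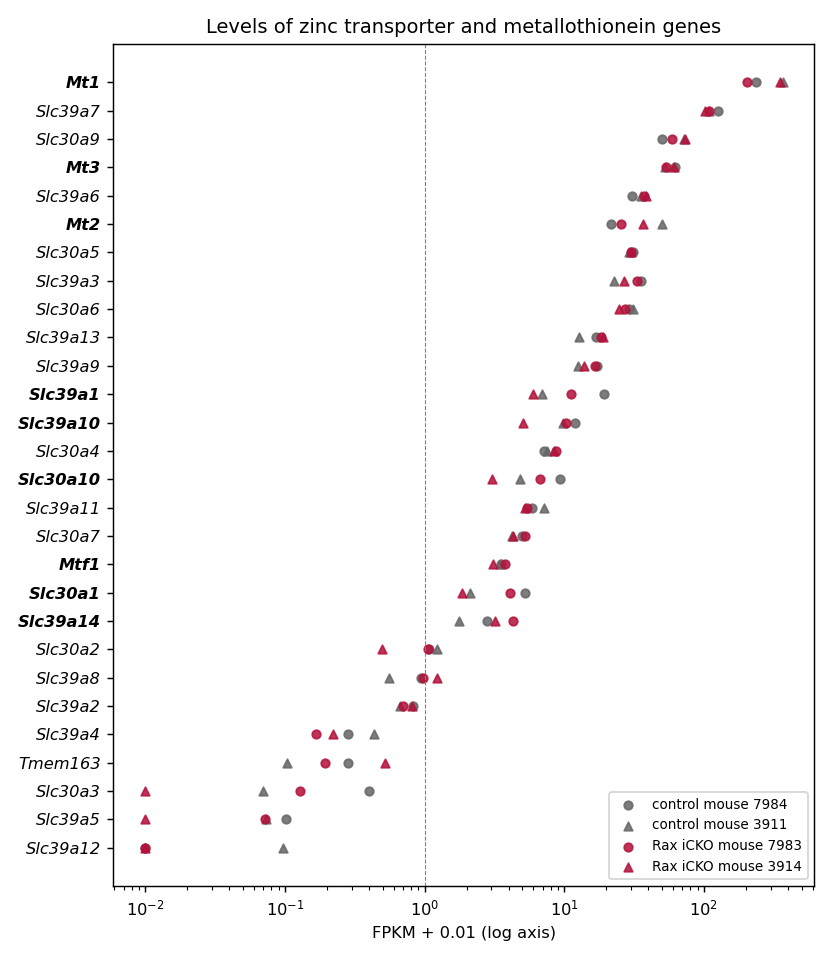
FPKM of the 9 genes (bold names) and the other genes of zinc handling in each mouse on a log axis, ordered by mean FPKM, with a dashed line at the filter of 1 FPKM. *Mt1* stands highest at 202.8 to 365.5 FPKM, followed by *Slc39a7* at 102.5 to 125.5 FPKM, and the genes listed at 0 in all libraries are left out.

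Genes that handle other metals gave no adjusted call. Of 12 copper genes, 11 were tested and the median log2 fold change was -0.22, with 8 below 0. *Cp*, which encodes the copper-binding ferroxidase ceruloplasmin, was 220.5 and 204.1 FPKM in control and 144.0 and 134.4 FPKM in *Rax* iCKO (log2 fold change -0.61, limma adjusted p = 1 and an unadjusted p under 0.05). The groups also did not overlap for the copper chaperone *Atox1* (-0.43) and for *Sod1* (-0.26), both lower in *Rax* iCKO. In all, 5 copper genes were lower without overlap and 0 were higher, where 14.1% of all genes tested were lower in this way.

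Of 15 genes of iron and manganese handling, all were tested, with a median log2 fold change of -0.13 and 9 genes below 0. Groups did not overlap for 2 that were higher in *Rax* iCKO and 4 that were lower, where 15.4% and 14.1% of all genes tested did so. *Slc40a1*, the iron exporter ferroportin, was 5.406 and 4.91 FPKM in control and 7.791 and 8.907 FPKM in *Rax* iCKO (log2 fold change 0.60, limma adjusted p = 1 and an unadjusted p under 0.05). *Steap3*, a ferrireductase, had a log2 fold change of -0.78 at a mean of 1.089 FPKM, and the transferrin receptor *Tfrc* had 0.57 with overlapping groups. Glucocorticoids also induce metallothioneins. Of 13 genes known to respond to them, 10 were tested, with a median of -0.04 and 5 genes on each side of 0. Without overlap, 1 of the 10 was higher in *Rax* iCKO and 3 were lower, against the same shares of all genes tested. The largest differences among the 10 were those of *Hif3a* (0.53), *Dusp1* (-0.52) and *Ddit4* (-0.52), none with p under 0.05 in the main limma fit. With the run as a term in the limma fit, p before adjustment was 0.00503 for *Dusp1* (adjusted p = 0.131) and 0.0225 for *Ddit4* (adjusted p = 0.231). In that fit 15.7% of all genes tested had an unadjusted p under 0.05.

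Markers of cell types moved with genotype and with the runs, and the sums below are FPKM over each list. The 14 Müller glia markers summed to 20200 and 15830 in control and to 13470 and 13660 in *Rax* iCKO. Their log2 fold change was below 0 for 13 of 14, with a median of -0.31, and 5 were lower in *Rax* iCKO without overlap, where 14.1% of all genes tested were. By run, 8 of them were higher in both of mice 7983 and 7984 than in the others, where 55.9% of all genes tested were separated by run in either direction. The 10 rod markers summed to 1809 and 1742 in control and to 1196 and 1013 in *Rax* iCKO, with 9 lower without overlap, where 14.1% of all genes tested were. Of the 10 bipolar cell markers, 9 had a log2 fold change above 0, and 5 were higher in *Rax* iCKO without overlap, against 15.4% of all genes tested. *Trpm1*, a channel of ON bipolar cells, was 178.4 and 213.2 FPKM in control and 293.3 and 327.3 FPKM in *Rax* iCKO (log2 fold change 0.67). The other 5 bipolar markers were lower in mice 7983 and 7984, where 55.9% of all genes tested were separated by run in either direction. They included *Pcp2*, which was 2071 and 2727 FPKM in mice 7984 and 7983 and 6515 and 4846 FPKM in mice 3911 and 3914 and supplied most of the sum. That was the order of the runs that *Mt1* and *Mt2* also had. The sums were 4019, 9319, 5432 and 7909 in mice 7984, 3911, 7983 and 3914, and 1948, 2804, 2705 and 3063 without *Pcp2*. Sums of cone markers in the same order of mice were 157.8, 200.2, 143.4 and 199.6, and 104.8, 109.7, 97.53 and 116.9 without *Gngt2*. Those of amacrine and horizontal cell markers were 79.64, 55.73, 71.98 and 51.41, and 5.219 to 11.14 without *Pax6*, which Müller glia also express. Those of endothelium and pericyte markers, 492.0, 241.2, 410.1 and 255.2, came almost wholly from *Kdr*, and the endothelial markers *Pecam1*, *Cdh5*, *Cldn5* and *Tie1* were at most 1.773 FPKM in any library. The 6 astrocyte markers summed to 142.0 and 105.7 in control and to 92.21 and 70.69 in *Rax* iCKO, and all 5 that were tested had a log2 fold change below 0. *Slc14a1* (37.57 to 84.93 FPKM) and *Aldh1l1* (20.91 to 44.15 FPKM) supplied most of these sums. *Gfap* and *S100b* were higher in mice 3911 and 3914 than in the others, and *Pax2* was at most 0.03809 FPKM. Microglia markers summed to 61.73 and 71.45 in control, and the *Rax* iCKO mice 7983 and 3914 held the extremes, at 105.3 and 19.07. Sums ran from 6.385 to 15.36 for ganglion cells with *Pou4f1* at 0 in all, and from 3.197 to 9.599 for pigment epithelium with *Mlana* at 0 in all. *Xist* was 24.5 and 21.19 FPKM in the control mice and 0.01195 and 0.006053 FPKM in the *Rax* iCKO mice, and the Y-linked *Eif2s3y* was 43.7 FPKM in mouse 7983 and 0 in the other 3. The part of these differences in the values of the zinc genes was not tested.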

How the data were processed

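mTFP-positive cells of 2 control and 2 *Rax* iCKO mice, 1 mouse per library, were measured by RNA-seq. Groups were taken from the labels. The deposited FPKM, 1 per gene and library, were made by the authors with Cufflinks from single-end reads that TopHat, Bowtie2 and SAMtools had placed on mm10. The labels name a column kit for RNA and SMART-Seq HT cDNA, whereas the methods name TRIzol LS, and tool versions differ between them. Because FPKM are relative within a library, abundant genes shift the others.

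FPKM were used as deposited. Depth was estimated from genes under a few reads, where 73.18% to 79.016% of values lay within 0.1 of a whole read, so read numbers were estimates and were not used for tests. Counting errors cover counting only. Genotypes were compared with limma 3.58.1 (lmFit, eBayes with trend) in R 4.3.3 on log2(FPKM + 1), over 12363 genes with a mean of at least 1 FPKM, with Benjamini-Hochberg adjustment over all of them, and the procedure was tested on simulated data. Exact permutation tests used scipy 1.17.1. Intervals are 95% intervals of the limma fit.

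The 9 genes and all lists (other zinc, copper, iron and manganese, glucocorticoid-responsive and cell type markers) were chosen with earlier results of these data known. Named genes were the 9, *Rax*, those with p under 0.05 or up to 3 with the largest change in each list other than markers, the 5 most abundant other zinc genes, and the 3 nearest in pattern to *Mt1* and *Mt2*. *Xist*, *Eif2s3y*, overlapping genes and the cell type markers named singly were named after their values were seen. Promoters and the start and end of loci came from RefSeq, and coding sequences, strands, exon overlaps and transcript lengths from GENCODE on GRCm38. Alternatives were a pseudocount of 0.1, no filter, a mean of at least 5 FPKM, quantile normalization, equal library medians, no variance trend, a block for the run of mouse numbers, leaving out each mouse, and, added after seeing the data, equal medians within 4 transcript length classes.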

Additional observations from a re-analysis of the deposited data

How the results depend on the processing

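None of the 9 genes and none of the 11 other zinc genes tested passed an adjusted p of 0.05 by limma under any alternative run, and the smallest adjusted p of a member was 0.269. Members whose groups do not overlap numbered 1 in the main analysis, 0 with a mean of at least 5 FPKM, which leaves out *Mtf1*, *Slc30a1* and *Slc39a14*, and 2 after quantile normalization, with equal library medians, and with equal medians within length classes (*Slc39a14* higher and *Slc39a10* lower each time). Without 1 mouse, which leaves a genotype with 1 library that is assumed to vary like the other genotype, they numbered 3 to 7 of 9, where 60.3% to 70.3% of all genes did not overlap. Over all genes, 3 passed in the main analysis, against 0 without a filter, 0 with a mean of at least 5 FPKM, 6 with equal library medians, 1 with equal medians within length classes, 15 to 20 without 1 mouse and 71 with the replicate block. The cause of these differences was not tested.

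The sign changed for *Mt1* after quantile normalization (0.0052) and within length classes (0.0652), for *Mt2* within length classes (0.0836) and for *Mt3* with equal library medians (-0.0091). The other 65 values of members, without those that leave out a mouse, kept their sign and their side of the threshold. Without 1 mouse, log2 fold changes ranged from -0.53 to 0.25 for *Mt1*, -0.70 to 0.47 for *Mt2*, -0.10 to 0.13 for *Mt3*, -0.12 to 0.0884 for *Mtf1*, -0.71 to 0.30 for *Slc30a1*, -0.94 to -0.02 for *Slc30a10*, -1.14 to 0.22 for *Slc39a1*, -0.96 to -0.05 for *Slc39a10* and 0.32 to 0.78 for *Slc39a14*.

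The run of mouse numbers was used as a replicate block, although the labels do not say that it marks a pairing. Deviations of mice within a run correlated at r = 0.5026 across 12363 genes, which are not independent. With 2 mice per genotype the deviations of a genotype mirror each other. Both runs therefore share this single r, and pairing the mice across runs gives -0.5026 by construction. With the block, 4 of the 9 genes had limma p under 0.05 before adjustment, against 15.7% of all genes: *Slc39a10* (adjusted p = 0.269), *Slc39a1* (adjusted p = 0.29), *Slc30a10* (adjusted p = 0.294) and *Slc39a14* (adjusted p = 0.295). The block changed no adjusted call of a member, whereas *Rax* passed with it (adjusted p = 0.0223) and not without it. Depth limits *Slc39a14* and *Mt2* most, and 2 mice per genotype limit all values.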
